A study of Mus musculus with 6 samples.

Results

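The genes described here are 49 cell cycle and DNA replication genes: the cyclins and cyclin-dependent kinases, the E2F factors, the origin licensing and replication factors, the enzymes that supply deoxynucleotides, and the kinases, checkpoint proteins and motors of mitosis. They were listed by symbol, and all 49 were found among the 21671 genes of the expression table. All libraries came from GA muscles of mdxITGAM-DTR mice of both sexes. Their mdx background, a model of Duchenne muscular dystrophy, leaves them without dystrophin, and they carry the receptor for diphtheria toxin (DT) under the ITGAM promoter, which is active in monocytes, MΦs and other myeloid cells. Mice aged 10 weeks at the first injection received intramuscular DT, at 1 ng per g of body weight, or PBS every 4 days, and muscles were taken on day 15. Satellite cells (SCs), the stem cells of skeletal muscle, were sorted as Lin-/Sca1-/α7-integrin+ cells from PBS-injected mice (SCs CTRL) and from DT-injected mice (SCs DT). α7Sca1 cells, which are Lin- and positive for both α7-integrin and Sca1, were sorted from DT-injected mice only, so they have no PBS counterpart here. Each group has 2 RNA-Seq libraries, and each library is a pool of 2 mice.

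A cell that leaves quiescence is driven through G1 by D-type cyclins bound to Cdk4 or Cdk6, which release E2F factors to switch on the genes of DNA replication. Cyclin E with Cdk2, cyclin A and cyclin B with Cdk1 then carry the cell through S phase and into mitosis, where the anaphase-promoting complex (APC/C) ends the cycle by marking cyclin B and other proteins for destruction. In dystrophic muscle SCs divide repeatedly to supply myoblasts, and they leave the cycle when they differentiate or return to quiescence, so RNAs of this group are commonly read as a sign of how many cells of a sample are dividing.

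Genes of the cycle share a few promoter elements, and the promoters of 7 members are printed here to show them. No tie between these elements and the differences described below was tested. Replication genes are classically bound by E2F at letters such as TTTGGCGC, whereas genes of G2 and mitosis carry the cell cycle genes homology region (CHR), TTTGAA or TTCGAA, often a short distance from CCAAT boxes. The windows run from 250 bases before to 50 bases after the RefSeq start on GRCm38.p6, each printed 5′ to 3′ on the strand of its gene, and the capitals mark every match on either strand to CHR (TTTGAA or TTCGAA), to E2F (TTTCCCGC or TTTGGCGC or TTTCGCGC or TTTGCCGC) or to CCAAT. Mcm3 (chr1:20820263-20820562, minus strand) and Mcm6 (chr1:128359656-128359955, minus strand), which encode subunits of the replicative helicase, stand for the E2F kind. Cdk1 (chr10:69352863-69353162, minus strand), the mitotic kinase, holds both kinds. Ube2c (chr2:164769679-164769978, plus strand), the ubiquitin-conjugating enzyme of the APC/C, Cenpa (chr5:30666636-30666935, plus strand), the histone of centromeres, and Top2a (chr11:99024140-99024439, minus strand), the topoisomerase that untangles chromosomes, stand for the CHR kind. Cdk4 (chr10:127063285-127063584, plus strand), the G1 kinase, holds no match.
Mcm3: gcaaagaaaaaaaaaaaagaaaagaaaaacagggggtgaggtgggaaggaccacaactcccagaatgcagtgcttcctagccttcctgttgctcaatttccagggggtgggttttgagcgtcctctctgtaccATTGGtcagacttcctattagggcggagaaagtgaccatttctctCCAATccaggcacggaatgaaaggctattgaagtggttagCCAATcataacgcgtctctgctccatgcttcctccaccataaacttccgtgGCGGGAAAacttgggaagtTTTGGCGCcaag
Mcm6: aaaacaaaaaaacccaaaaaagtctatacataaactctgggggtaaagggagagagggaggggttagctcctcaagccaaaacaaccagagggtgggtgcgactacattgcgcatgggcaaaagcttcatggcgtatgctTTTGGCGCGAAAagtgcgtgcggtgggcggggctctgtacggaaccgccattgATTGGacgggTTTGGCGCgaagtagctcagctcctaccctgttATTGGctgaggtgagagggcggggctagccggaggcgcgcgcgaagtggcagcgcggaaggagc
Cdk1: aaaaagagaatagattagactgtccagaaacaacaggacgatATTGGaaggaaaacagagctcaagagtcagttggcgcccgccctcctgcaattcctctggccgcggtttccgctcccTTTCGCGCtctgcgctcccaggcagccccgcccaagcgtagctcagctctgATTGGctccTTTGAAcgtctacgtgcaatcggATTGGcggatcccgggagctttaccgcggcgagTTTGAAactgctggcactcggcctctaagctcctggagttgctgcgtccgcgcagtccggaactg
Ube2c: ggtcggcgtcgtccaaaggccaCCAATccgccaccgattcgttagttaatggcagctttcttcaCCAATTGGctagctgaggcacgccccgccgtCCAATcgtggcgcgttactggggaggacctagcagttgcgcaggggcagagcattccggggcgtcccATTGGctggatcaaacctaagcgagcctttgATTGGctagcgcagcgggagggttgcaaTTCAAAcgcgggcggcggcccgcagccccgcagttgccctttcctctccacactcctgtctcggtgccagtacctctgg
Cenpa: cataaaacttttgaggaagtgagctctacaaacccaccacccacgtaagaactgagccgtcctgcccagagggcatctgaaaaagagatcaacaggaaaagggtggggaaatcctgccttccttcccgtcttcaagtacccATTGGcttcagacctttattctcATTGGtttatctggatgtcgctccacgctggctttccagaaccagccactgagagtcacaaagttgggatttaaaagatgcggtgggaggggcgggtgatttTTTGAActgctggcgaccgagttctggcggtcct
Top2a: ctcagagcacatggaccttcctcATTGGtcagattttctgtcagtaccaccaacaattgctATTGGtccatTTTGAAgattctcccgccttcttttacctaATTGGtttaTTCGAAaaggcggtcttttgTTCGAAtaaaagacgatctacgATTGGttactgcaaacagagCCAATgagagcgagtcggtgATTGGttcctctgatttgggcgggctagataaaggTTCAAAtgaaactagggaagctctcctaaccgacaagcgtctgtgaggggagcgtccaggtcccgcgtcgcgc
Cdk4: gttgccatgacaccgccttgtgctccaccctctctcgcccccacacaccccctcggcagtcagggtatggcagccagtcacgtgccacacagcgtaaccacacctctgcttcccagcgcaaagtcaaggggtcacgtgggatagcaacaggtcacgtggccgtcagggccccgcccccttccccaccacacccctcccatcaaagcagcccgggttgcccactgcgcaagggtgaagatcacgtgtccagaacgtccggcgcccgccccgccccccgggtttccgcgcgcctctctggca

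Counted from 1 at the start, the E2F matches of Mcm3 began at positions 20 and 39, and the CHR of Cenpa at position 17. In Cdk1 the CHR matches began 71 and 15 bases before the start, each downstream of a CCAAT box on the opposite strand. The E2F letters overlap each other where a stretch reads as a match on both strands, as in Mcm6, and CCAAT overlaps its own reverse complement in Ube2c. Of the 49 members, 40 had a promoter window in the RefSeq table. A CHR stood in 21 of them (52.5%), against 21.7% of the 27025 genes with a window and 16.2% of the genes tested below. An E2F match stood in 8 (20%), against 2.61% of all genes with a window and 4.42% of those tested, and CCAAT in 31 (77.5%), against 41.1% and 42.7%. All 21 windows with a CHR also held CCAAT, a pair found in 8.61% of all windows. The kinds divided by role: the mitotic kinases, checkpoint and APC/C genes held a CHR in 6 of 6 windows and E2F letters in none, and the origin licensing and replication genes held E2F letters in 5 of 7 and a CHR in 2 of 7. None of the 3 windows of G1 cyclins and kinases and none of the 4 of deoxynucleotide enzymes held either. Such matches describe the letters of these windows only.

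**Figure D1:**
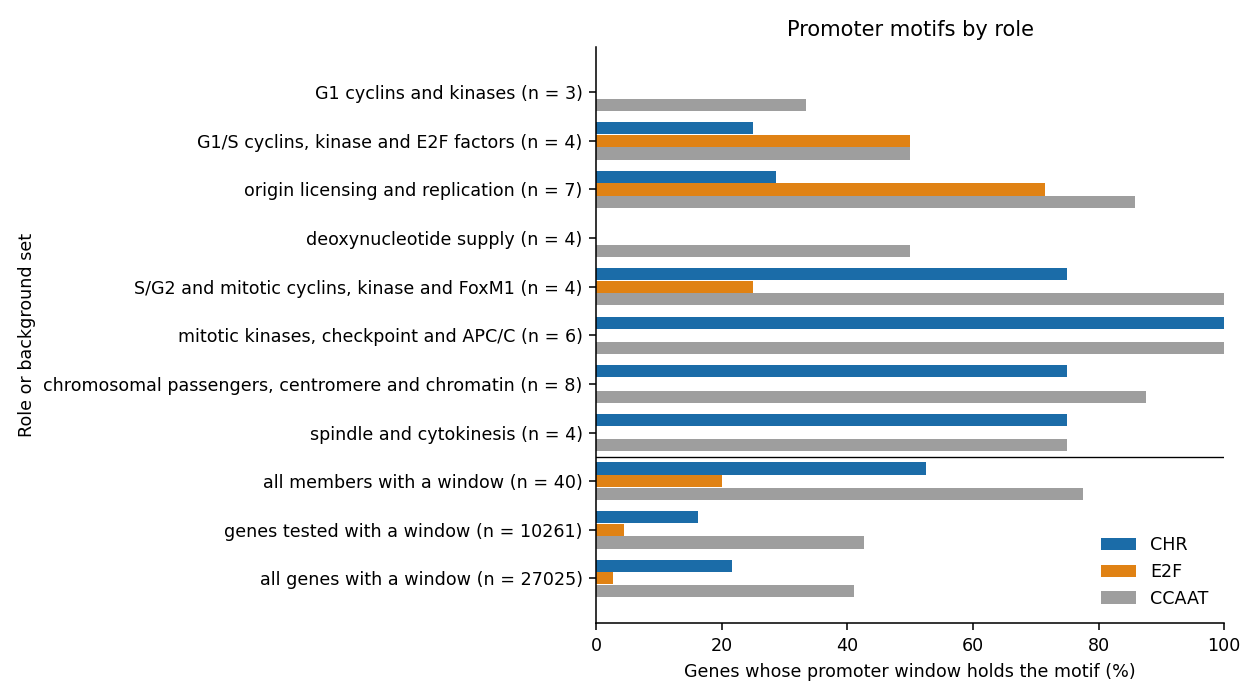
Share of genes (x axis, %) whose 300-base promoter window holds a CHR, an E2F match or CCAAT, by role of the cell cycle members (y axis, with the number of genes that had a window) and, under the line, for all members, for the genes tested and for all genes. CHR bars reach 75% to 100% in the 4 roles of S/G2 and mitosis, and the longest E2F bar is that of origin licensing and replication.

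The values are RPKM, reads scaled by the length of the transcript and by the size of the library, so levels of different genes can be set side by side. The authors' values follow the same distribution in all 6 libraries, with 12314 genes above 0.25 RPKM in each, and the depth behind them is unknown. Differences were tested by limma in a single fit of 6 libraries to log2(RPKM + 1), over the 13934 genes with a maximum above 0.25 RPKM, with Benjamini-Hochberg adjustment across all of them. All 49 members passed that filter. With 2 libraries against 2 the smallest p of an exact permutation test is 0.333, and calls depend on the spread that limma shares between genes and groups. The labelled cell types were checked by their markers. SCs held Pax7 at 2.67 to 5.01 RPKM and Myod1 at 40.4 to 59.8 RPKM, and α7Sca1 cells held Pax7 at 0.319 and 0.380 RPKM and Myod1 at 2.44 and 3.72 RPKM. Of the sorting markers, Ly6a (Sca1) stood at 248 and 344 RPKM in α7Sca1 cells and at 21.6 to 55.2 RPKM in SCs, and Itga7 at 41.8 to 78.3 RPKM throughout. Marker lists of other cells also differed between libraries. The summed level of 19 macrophage and monocyte genes was 1484 and 809 RPKM in SCs CTRL, 310 and 587 in SCs DT and 345 and 308 in α7Sca1 cells. That of 10 fibro-adipogenic progenitor and fibroblast genes, among them the sorting marker Ly6a, was 3520 RPKM in the first SCs CTRL library and 390 to 1420 RPKM in the other libraries. For 10 adipocyte genes it was 77.2 to 665 RPKM in SCs and 12013 and 13141 RPKM in α7Sca1 cells. Myogenic differentiation genes (9 in the table) summed to 279 and 550 RPKM in SCs CTRL, 1367 and 2053 in SCs DT and 48.1 and 40.5 in α7Sca1 cells. Their part in the results below was not tested.

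In SCs DT against SCs CTRL, which asks how depletion of MΦs bears on SCs, no member passed an adjusted p of 0.05 in limma, in either direction. The background was 0.0933% of all genes called lower and 0.352% called higher. The values themselves leaned to one side. The fitted difference was below 0 for 47 of 49 members and above 0 for Ccnd2 and Cdk6, whereas 52.0% of all genes tested were below 0. The libraries of the groups did not overlap for 46 members, of which 45 were lower in SCs DT, against a background of 25.1% of all genes, and 1 (Ccnd2) was higher, against 21.6%. At an unadjusted p below 0.05, 31 members were lower and 0 higher, and the same holds for 5.14% and 5.26% of all genes. Fewer members were lower at that level when any SC library was left out, and fewest without the second SCs CTRL library. A left-out library also leaves fewer samples. The median log2 fold change of the members was -0.56, beside -0.01 over all genes, and the median member stood in SCs DT at 60.4% of its mean level in SCs CTRL, with a range from 44.2% for Cenpe to 113% for Ccnd2. In bulk RNA a smaller share of dividing cells and less of these RNAs in each cell cannot be told apart.

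The 2 SCs CTRL libraries differed from each other. The second was above the first in 43 of 49 members, by a median of 0.29 on the log2 scale, while 55.5% of all genes were higher in it. Without it the median log2 fold change of the members was -0.43 (all genes 0.01), and without the first SCs CTRL library it was -0.73 (all genes -0.02). Without the first or the second SCs DT library the median was -0.60 or -0.55, and without the first or the second α7Sca1 library it was -0.56. The first SCs CTRL library was lower than the second for most members. It had the higher summed levels of macrophage genes (1484 against 809 RPKM) and of fibro-adipogenic progenitor and fibroblast genes (3520 against 536 RPKM). The part of these in the result was not tested. Between the SCs DT libraries 28 members were higher in the first and 21 in the second.

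α7Sca1 cells differed from SCs DT far more widely. Of the 49 members, 39 fell and 1 rose at an adjusted p of 0.05 in limma, where 15.6% of all genes fell and 14.6% rose, and the median log2 fold change was -1.23 beside -0.04 over all genes. The groups did not overlap for 46 members lower and 1 higher, against 36.4% and 30.8% of all genes. The median member stood at 28.7% of its SCs DT level. The member that rose was Ccnd2, and the 9 that did not pass were Ccnd3, Cdk2, E2f1, Cdc6, Mcm4, Tyms, Ccnf, Cenpe and Cenpf. Without the first SCs DT library the median log2 fold change of the members was -1.22 (all genes -0.03), and without the second -1.31 (all genes -0.04). The number of members called lower dropped when either SCs DT library was left out, as did the number over all genes. Against SCs CTRL, 47 members were called lower and 1 higher, where 17.3% and 15.1% of all genes were, with a median of -1.75 (all genes -0.06), and no member overlapped between the groups, 48 being lower and 1 higher (38.1% and 30% of all genes). That comparison carries the gate and the injection together, and the 3 comparisons share libraries, so they are not separate evidence. Fewer than 47 members were called lower against SCs CTRL when either SCs CTRL library was left out, and fewer of all genes were.

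Each library of SCs CTRL was above each of SCs DT, and each of these above each of α7Sca1 cells, for 43 of 49 members and for 8.70% of all genes tested. By group means the order SCs CTRL, SCs DT, α7Sca1 cells held for 47 members and for 25.2% of all genes. Summed over the members, the level was 608 and 749 RPKM in SCs CTRL, at 465 and 439 in SCs DT and at 173 and 153 in α7Sca1 cells. Members under 1 RPKM numbered 2 and 1 in SCs CTRL, 5 and 5 in SCs DT, and 16 and 22 in α7Sca1 cells, and none was listed at 0 in any library.

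**Figure D2:**
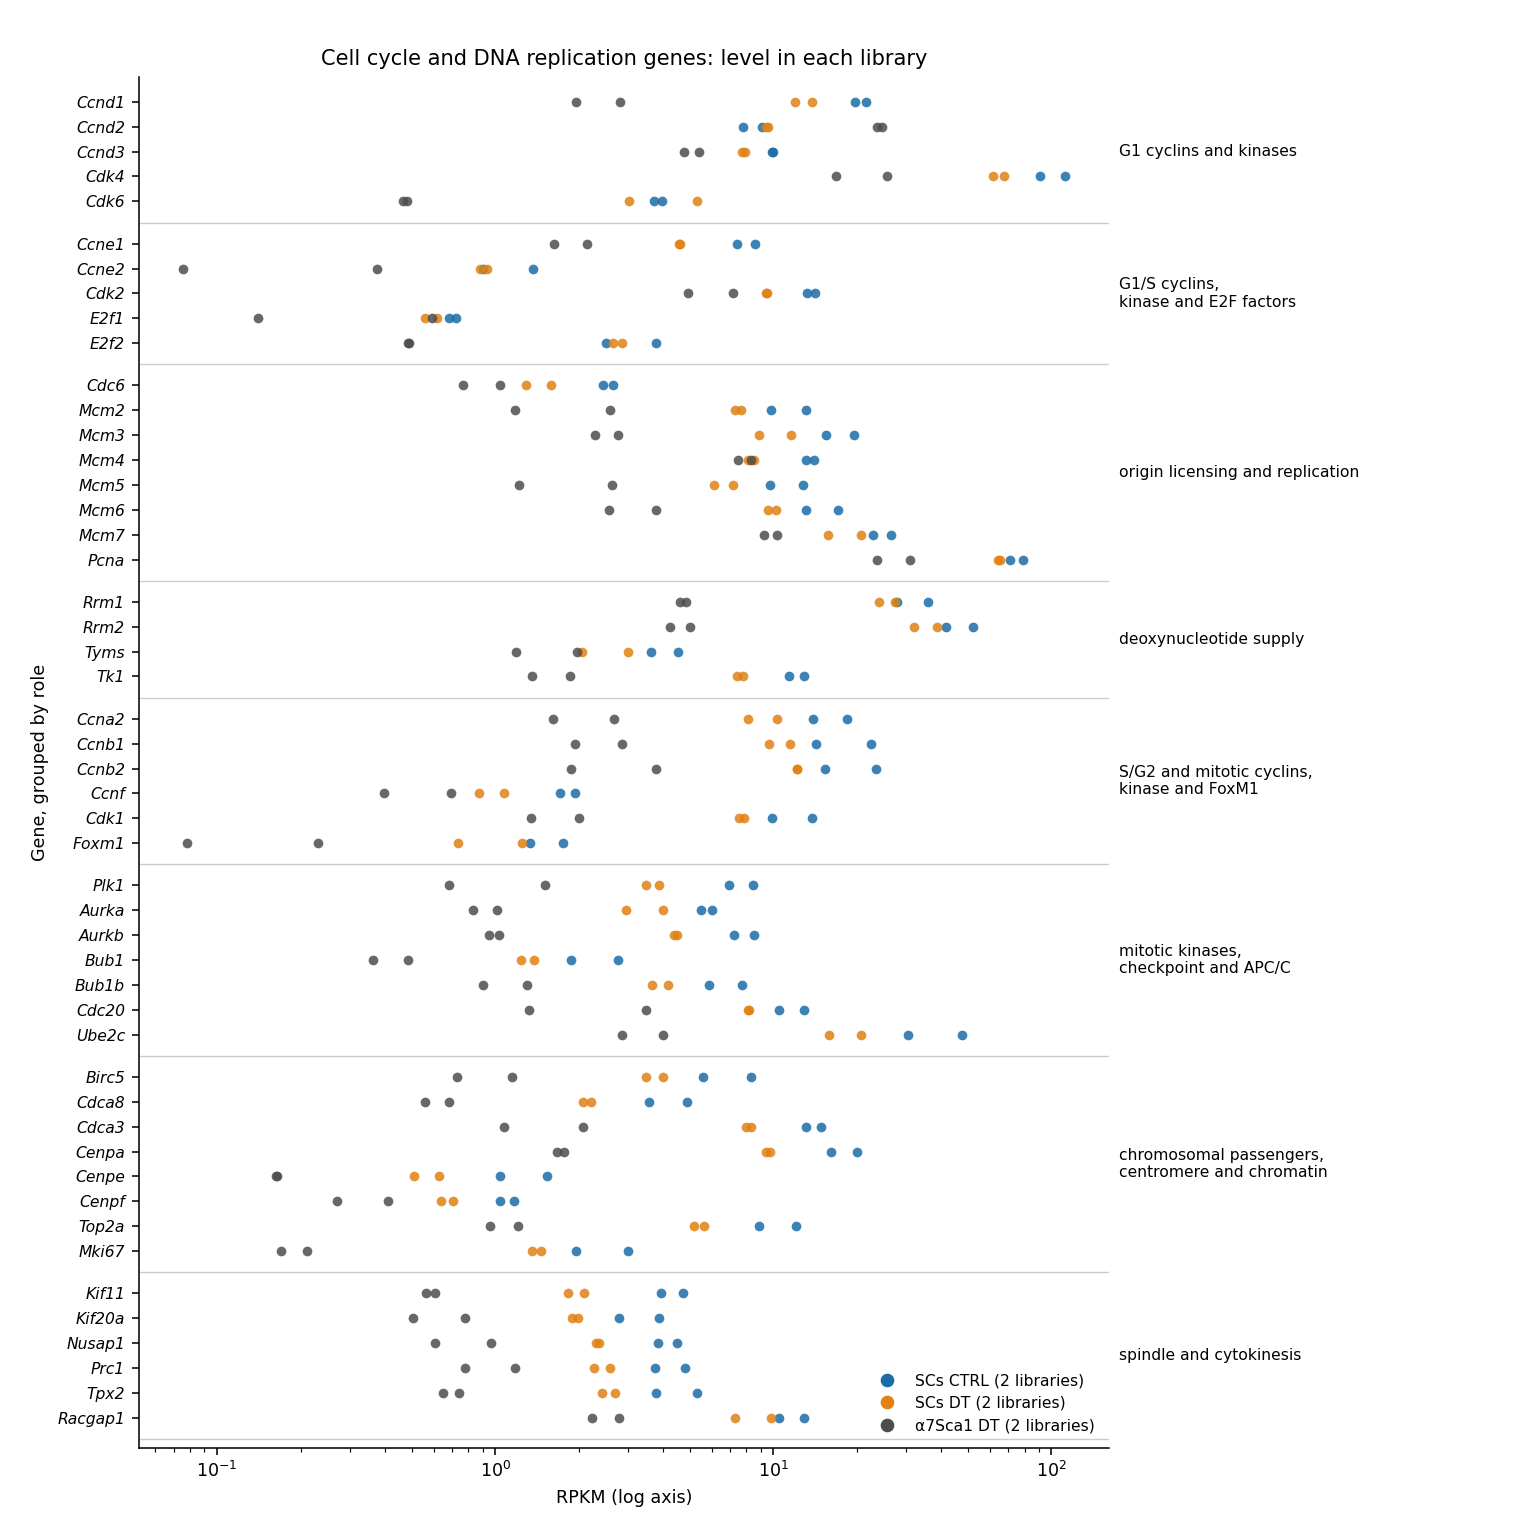
RPKM of the 49 members (log x axis) in each of the 6 libraries, grouped by role on the y axis; each point is a library, 2 for each group. For 43 members the points run from α7Sca1 DT on the left through SCs DT to SCs CTRL on the right without overlap, while Ccnd2 runs the other way.

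The G1 genes held members of both directions. Values of each gene are given for libraries 1 and 2 of a group in that order. Cdk4, the kinase partner of the D-type cyclins and the most abundant member in SCs CTRL, was at 91.0 and 112 RPKM in SCs CTRL, at 67.7 and 61.7 in SCs DT and at 25.5 and 16.8 in α7Sca1 cells. Ccnd1, cyclin D1, was at 21.5 and 19.7 RPKM in SCs CTRL, at 12.0 and 13.7 in SCs DT and at 2.81 and 1.95 in α7Sca1 cells. For both genes the 3 groups were apart in every library. Between SCs DT and SCs CTRL the log2 fold change was -0.64 for Ccnd1 (standard error 0.21, adjusted p = 0.34 in limma) and -0.63 for Cdk4 (standard error 0.27, adjusted p = 0.48). In α7Sca1 cells against SCs DT Ccnd1 fell by 2.04 (adjusted p = 0.00068) and Cdk4 by 1.60 (adjusted p = 0.0050).

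Ccnd2, cyclin D2, went the other way, at 9.07 and 7.81 RPKM in SCs CTRL, at 9.59 and 9.42 in SCs DT and at 24.5 and 23.6 in α7Sca1 cells. It was the single member that rose, by 1.25 on the log2 scale against SCs DT (standard error 0.19, adjusted p = 0.0034 in limma) and by 1.41 against SCs CTRL (adjusted p = 0.0019), and it stayed past the threshold under every alternative setting and without any library in turn. Ccnd3, cyclin D3, was at 9.997 and 9.90 RPKM in SCs CTRL, at 7.93 and 7.68 in SCs DT and at 4.79 and 5.39 in α7Sca1 cells, and fell only against SCs CTRL (-0.85, adjusted p = 0.012). Cdk6, the other kinase partner of these cyclins, ranged from 3.03 to 5.30 RPKM in SCs, where the groups overlapped, and fell by 1.77 in α7Sca1 cells against SCs DT (adjusted p = 0.0018), to 0.468 and 0.483 RPKM.

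The 3 D-type cyclins had a similar summed level in SCs DT and α7Sca1 cells but a different makeup. Their sum was 40.5 and 37.4 RPKM in SCs CTRL, at 29.5 and 30.8 in SCs DT and at 32.1 and 31.0 in α7Sca1 cells. Ccnd1 made up 53.0% and 52.7% of it in SCs CTRL, 40.6% and 44.5% in SCs DT and 8.74% and 6.31% in α7Sca1 cells. Ccnd2 made up 22.4% and 20.9%, 32.5% and 30.6%, and 76.4% and 76.3%, in the same order. In every library of SCs Ccnd1 was the most abundant of the 3, and in both of α7Sca1 cells it was the least abundant.

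**Figure D3:**
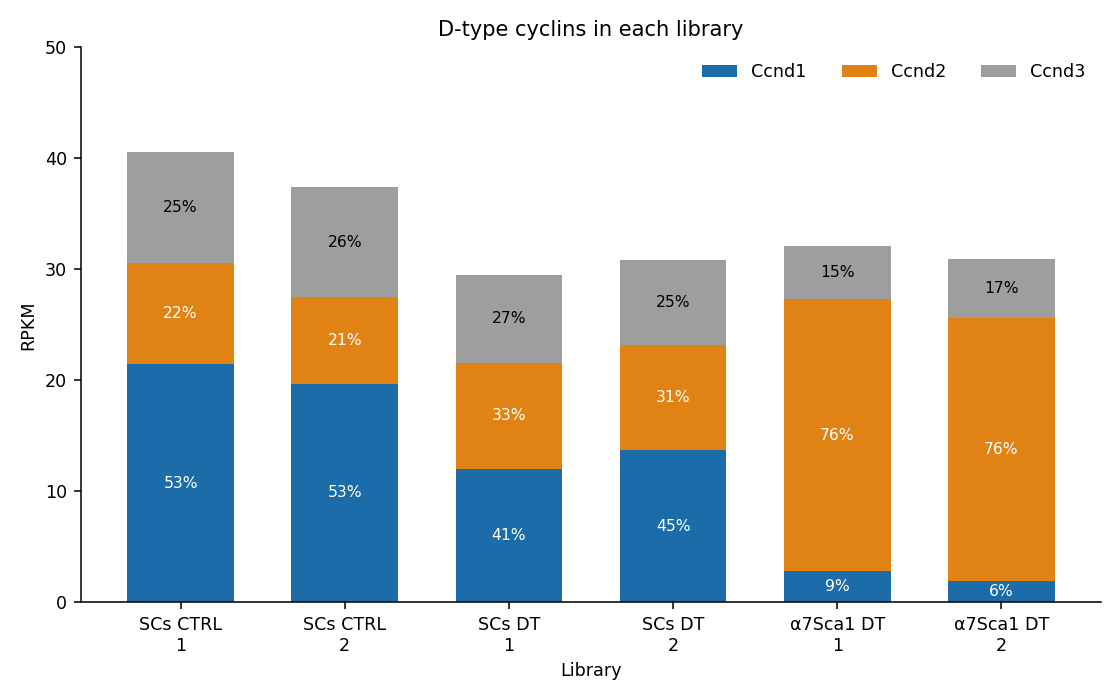
Stacked RPKM (y axis, from 0) of Ccnd1, Ccnd2 and Ccnd3 in each library (x axis), with the share of each cyclin in the bar. The bars of SCs DT and α7Sca1 cells are of like height, from 29.5 to 32.1 RPKM, and Ccnd2 fills about 76% of those of α7Sca1 cells.

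Of the 5 genes of the G1/S passage, 3 were lower in SCs DT than in SCs CTRL without overlap, and 3 fell in α7Sca1 cells against SCs DT. Cdk2, the kinase of cyclins E and A, was at 13.2 and 14.1 RPKM in SCs CTRL, at 9.42 and 9.50 in SCs DT and at 4.94 and 7.16 in α7Sca1 cells. Ccne1, cyclin E1, was at 7.42 and 8.62 RPKM in SCs CTRL, at 4.62 and 4.57 in SCs DT and at 2.13 and 1.63 in α7Sca1 cells. Ccne1 fell in α7Sca1 cells against SCs DT by 0.96 (adjusted p = 0.0091 in limma), and Cdk2, at -0.59, did not pass (adjusted p = 0.082), although the groups were apart for both. E2f2, an activating E2F factor, was at 2.50 and 3.79 RPKM in SCs CTRL, at 2.86 and 2.66 in SCs DT and at 0.486 and 0.489 in α7Sca1 cells. Ccne2, cyclin E2, was at 0.901 and 1.36 RPKM in SCs CTRL, at 0.881 and 0.931 in SCs DT and at 0.0752 and 0.375 in α7Sca1 cells. For these 2 genes the SC groups overlapped and α7Sca1 cells lay below both. E2f1, the founding member of the family, lay between 0.140 and 0.721 RPKM in all libraries and was the only member not called in α7Sca1 cells against SCs CTRL (-0.34, adjusted p = 0.17).

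Origin licensing and replication genes were lower in SCs DT without overlap in 8 of 8, with none called, and 6 of 8 fell in α7Sca1 cells against SCs DT. Pcna, the sliding clamp of DNA polymerases, was at 71.2 and 79.2 RPKM in SCs CTRL, at 64.2 and 65.3 in SCs DT and at 23.6 and 30.9 in α7Sca1 cells. In SCs DT it kept 86.1% of the SCs CTRL mean, the highest share of the role, and it fell by 1.23 in α7Sca1 cells (adjusted p = 0.0079 in limma). Mcm7, a subunit of the MCM helicase that is loaded on origins, was at 22.9 and 26.5 RPKM in SCs CTRL, at 20.7 and 15.7 in SCs DT and at 9.25 and 10.3 in α7Sca1 cells. Mcm3, another subunit, was at 15.5 and 19.4 RPKM in SCs CTRL, at 11.6 and 8.90 in SCs DT and at 2.75 and 2.28 in α7Sca1 cells. Both genes separated the 3 groups.

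Mcm4 did not follow the other subunits. It was at 13.9 and 13.1 RPKM in SCs CTRL, at 8.11 and 8.54 in SCs DT and at 8.28 and 7.44 in α7Sca1 cells, so that the groups of DT-injected mice overlapped. Its log2 fold change in α7Sca1 cells against SCs DT was -0.07 (standard error 0.19, 95% interval -0.52 to 0.37, adjusted p = 0.79 in limma), whereas Mcm2, Mcm3, Mcm5, Mcm6 and Mcm7 fell by 0.82 to 1.67. Mcm4 made up 16.4% and 12.9% of the summed RPKM of Mcm2 to Mcm7 in SCs CTRL, 12.4% and 15.2% in SCs DT and 28.3% and 29.8% in α7Sca1 cells. The share in both α7Sca1 libraries was above that in any SC library. Mcm2, Mcm5 and Mcm6 ran from 6.11 to 17.1 RPKM in SCs and from 1.17 to 3.78 RPKM in α7Sca1 cells. Cdc6, which loads the helicase, ran from 1.30 to 2.64 RPKM in SCs and was at 1.04 and 0.764 RPKM in α7Sca1 cells, below every SC library, and passed against SCs CTRL (-0.90, adjusted p = 0.0065) but not against SCs DT (-0.36, adjusted p = 0.14).

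**Figure D4:**
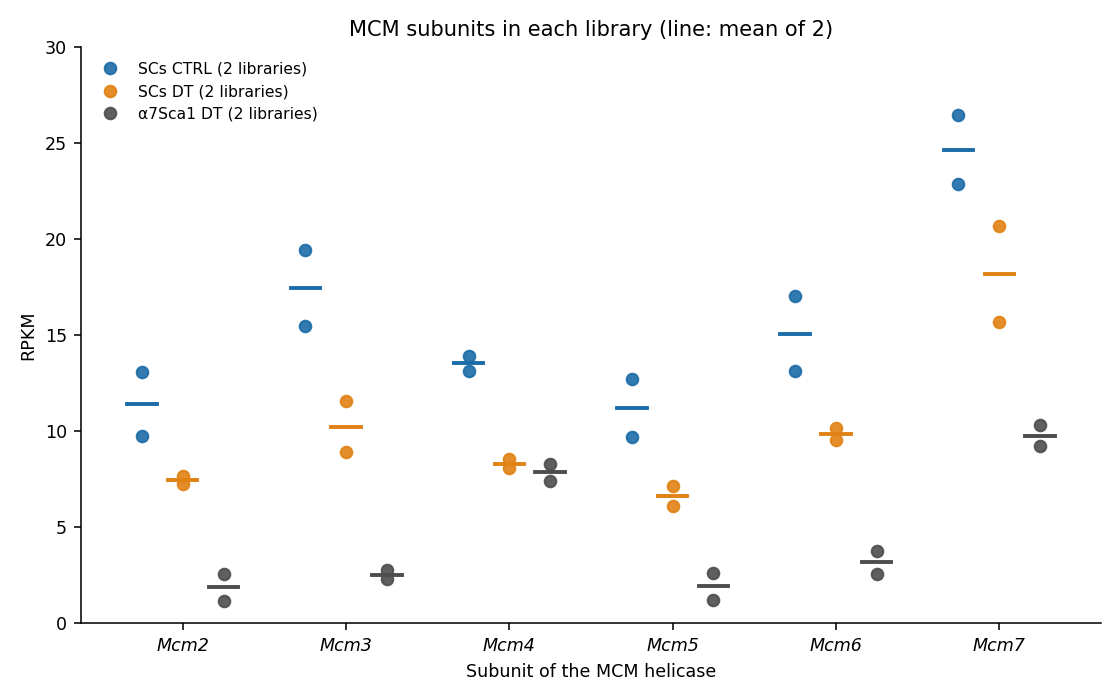
RPKM (y axis, from 0) of the 6 subunits of the MCM helicase (x axis) in each library; points are libraries and lines the mean of 2. α7Sca1 cells lie below SCs DT for 5 subunits and overlap with them for Mcm4, at 7.44 and 8.28 RPKM against 8.11 and 8.54 RPKM.

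Among the enzymes that supply deoxynucleotides, the ribonucleotide reductase genes had the widest distance between SCs and α7Sca1 cells. Rrm2, its cell cycle-regulated small subunit, was at 41.6 and 52.4 RPKM in SCs CTRL, at 32.0 and 38.8 in SCs DT and at 5.002 and 4.26 in α7Sca1 cells. Rrm1, the large subunit, was at 27.8 and 36.1 RPKM in SCs CTRL, at 27.5 and 23.96 in SCs DT and at 4.87 and 4.61 in α7Sca1 cells. Rrm2 fell by 2.69 against SCs DT (standard error 0.23, adjusted p = 0.00030 in limma), and Rrm1 by 2.22 (adjusted p = 0.00055). That of Rrm2 was the largest log2 fold change of RPKM + 1 of any member in that comparison. As a share of the SCs DT mean, Cdk6 stood lower (11.4%) than Rrm2 (13.1%). Tk1, thymidine kinase, was at 11.4 and 12.9 RPKM in SCs CTRL, at 7.42 and 7.76 in SCs DT and at 1.86 and 1.36 in α7Sca1 cells, and fell by 1.73 against SCs DT (adjusted p = 0.00093). Tyms, thymidylate synthase, was at 3.63 and 4.56 RPKM in SCs CTRL, at 3.001 and 2.06 in SCs DT and at 1.96 and 1.18 in α7Sca1 cells. The groups of Tyms did not overlap, but its difference from SCs DT, -0.46, did not pass (adjusted p = 0.18).

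The cyclins and the kinase of S/G2 and mitosis separated the 3 groups in every library. Ccnb1 and Ccnb2 encode cyclins B1 and B2. Ccnb1 was at 14.3 and 22.4 RPKM in SCs CTRL, at 11.5 and 9.61 in SCs DT and at 2.86 and 1.94 in α7Sca1 cells. Ccnb2 was at 15.4 and 23.4 RPKM in SCs CTRL, at 12.1 and 12.2 in SCs DT and at 3.79 and 1.87 in α7Sca1 cells. In both genes the second SCs CTRL library stood well above the first. Ccna2, cyclin A2, was at 13.9 and 18.4 RPKM in SCs CTRL, at 10.3 and 8.10 in SCs DT and at 2.67 and 1.62 in α7Sca1 cells. Cdk1, the kinase of these cyclins, was at 9.86 and 13.8 RPKM in SCs CTRL, at 7.87 and 7.54 in SCs DT and at 2.00 and 1.35 in α7Sca1 cells. These 4 genes fell by 1.71 to 1.83 in α7Sca1 cells against SCs DT, with adjusted p from 0.0019 to 0.0047 in limma, and differed by -0.54 to -0.74 between SCs DT and SCs CTRL, with adjusted p from 0.36 to 0.57. Foxm1, the factor that activates many genes of G2 and mitosis, ran from 0.736 to 1.76 RPKM in SCs and fell to 0.0782 and 0.231 RPKM. Ccnf, cyclin F, ran from 0.875 to 1.93 RPKM in SCs and did not pass against SCs DT (-0.36, adjusted p = 0.13).

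All 7 mitotic kinases, checkpoint and APC/C genes fell in α7Sca1 cells against SCs DT, and all were lower in SCs DT than in SCs CTRL without overlap. Ube2c was at 30.4 and 47.8 RPKM in SCs CTRL, at 20.7 and 15.9 in SCs DT and at 4.03 and 2.87 in α7Sca1 cells. Its log2 fold change of RPKM + 1 in SCs DT against SCs CTRL, -1.03, was the largest of any member (standard error 0.29, 95% interval -1.70 to -0.36, adjusted p = 0.25 in limma). As a share of the SCs CTRL mean, Cenpe (44.2%) and Kif11 (44.9%) stood lower than Ube2c (46.9%). Ube2c fell by 2.12 in α7Sca1 cells against SCs DT (adjusted p = 0.0019 in limma). An exon of Ube2c shares 144 bases with the muscle troponin gene Tnnc2 on the opposite strand, and the library kit does not mark strand, so reads of the shared bases cannot be told apart. Tnnc2 was at 15.8 and 34.0 RPKM in SCs CTRL, at 154 and 173 in SCs DT and at 3.77 and 4.51 in α7Sca1 cells. Between the SC groups the genes went opposite ways, Tnnc2 being higher and Ube2c lower in SCs DT. In α7Sca1 cells they went the same way, both being lower than in either SC group. The part of Tnnc2 reads in the Ube2c values was not tested. Cdc20, the activator of the APC/C, was at 10.5 and 12.9 RPKM in SCs CTRL, at 8.13 and 8.19 in SCs DT and at 3.50 and 1.32 in α7Sca1 cells. Aurkb, the kinase of the chromosomal passenger complex, was at 7.24 and 8.50 RPKM in SCs CTRL, at 4.40 and 4.51 in SCs DT and at 1.03 and 0.951 in α7Sca1 cells. Plk1, polo-like kinase, was at 6.91 and 8.47 RPKM in SCs CTRL, at 3.48 and 3.89 in SCs DT and at 1.51 and 0.684 in α7Sca1 cells. Plk1 fell by 1.19 in α7Sca1 cells against SCs DT (adjusted p = 0.0098), Aurkb by 1.46 (adjusted p = 0.0013), and Cdc20 passed as well (adjusted p = 0.012). Aurka, a kinase of spindle poles, and the checkpoint kinase genes Bub1 and Bub1b ran from 1.24 to 7.72 RPKM in SCs and from 0.364 to 1.30 RPKM in α7Sca1 cells.

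The genes of the chromosomal passengers, centromere and chromatin had the lowest median level in SCs DT of the 8 roles, 53.5% of SCs CTRL, with none called and none overlapping. Cenpa was at 16.1 and 20.0 RPKM in SCs CTRL, at 9.41 and 9.74 in SCs DT and at 1.77 and 1.67 in α7Sca1 cells. Its fall against SCs CTRL, by 2.80 (standard error 0.19), had the lowest adjusted p of any member, 0.00014 in limma. Cdca3, a trigger of mitotic entry, was at 13.1 and 14.8 RPKM in SCs CTRL, at 8.28 and 7.99 in SCs DT and at 2.07 and 1.07 in α7Sca1 cells. Top2a was at 8.87 and 12.1 RPKM in SCs CTRL, at 5.61 and 5.19 in SCs DT and at 1.21 and 0.954 in α7Sca1 cells. Birc5, the passenger protein survivin, was at 5.58 and 8.31 RPKM in SCs CTRL, at 4.02 and 3.48 in SCs DT and at 1.15 and 0.727 in α7Sca1 cells. All 4 separated the groups and fell by 1.30 to 1.96 in α7Sca1 cells against SCs DT. Mki67, which encodes the proliferation antigen Ki-67, was at 1.95 and 3.002 RPKM in SCs CTRL, at 1.46 and 1.36 in SCs DT and at 0.169 and 0.211 in α7Sca1 cells, and fell by 1.02 (adjusted p = 0.0062). It is named outside the rule, as the usual marker of dividing cells. Cdca8, another passenger, fell by 0.96, and the kinetochore genes Cenpe and Cenpf, which lay under 1.6 RPKM throughout, did not pass.

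The spindle and cytokinesis genes fell in α7Sca1 cells against SCs DT in 6 of 6, by 0.80 to 1.43. Racgap1, a regulator of cytokinesis, was at 10.5 and 12.9 RPKM in SCs CTRL, at 9.79 and 7.27 in SCs DT and at 2.78 and 2.23 in α7Sca1 cells. The microtubule-binding genes Tpx2, Prc1 and Nusap1 had lower levels in each group. Tpx2 was at 3.79 and 5.32 RPKM in SCs CTRL, at 2.41 and 2.70 in SCs DT and at 0.650 and 0.740 in α7Sca1 cells. Prc1 was at 3.74 and 4.82 RPKM in SCs CTRL, at 2.27 and 2.58 in SCs DT and at 1.18 and 0.776 in α7Sca1 cells. Nusap1 was at 3.84 and 4.52 RPKM in SCs CTRL, at 2.29 and 2.35 in SCs DT and at 0.607 and 0.968 in α7Sca1 cells. All 4 separated the 3 groups. Kif11, the kinesin that drives spindle poles apart, was at 3.95 and 4.75 RPKM in SCs CTRL, at 1.82 and 2.08 in SCs DT and at 0.565 and 0.606 in α7Sca1 cells. Of all members it had the lowest adjusted p in SCs DT against SCs CTRL, 0.11 in limma (log2 fold change -0.85, standard error 0.17, 95% interval -1.25 to -0.46), and is named outside the rule for that reason. Kif20a, a kinesin of cytokinesis, ran from 1.89 to 3.88 RPKM in SCs and was at 0.781 and 0.506 RPKM in α7Sca1 cells.

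**Figure D5:**
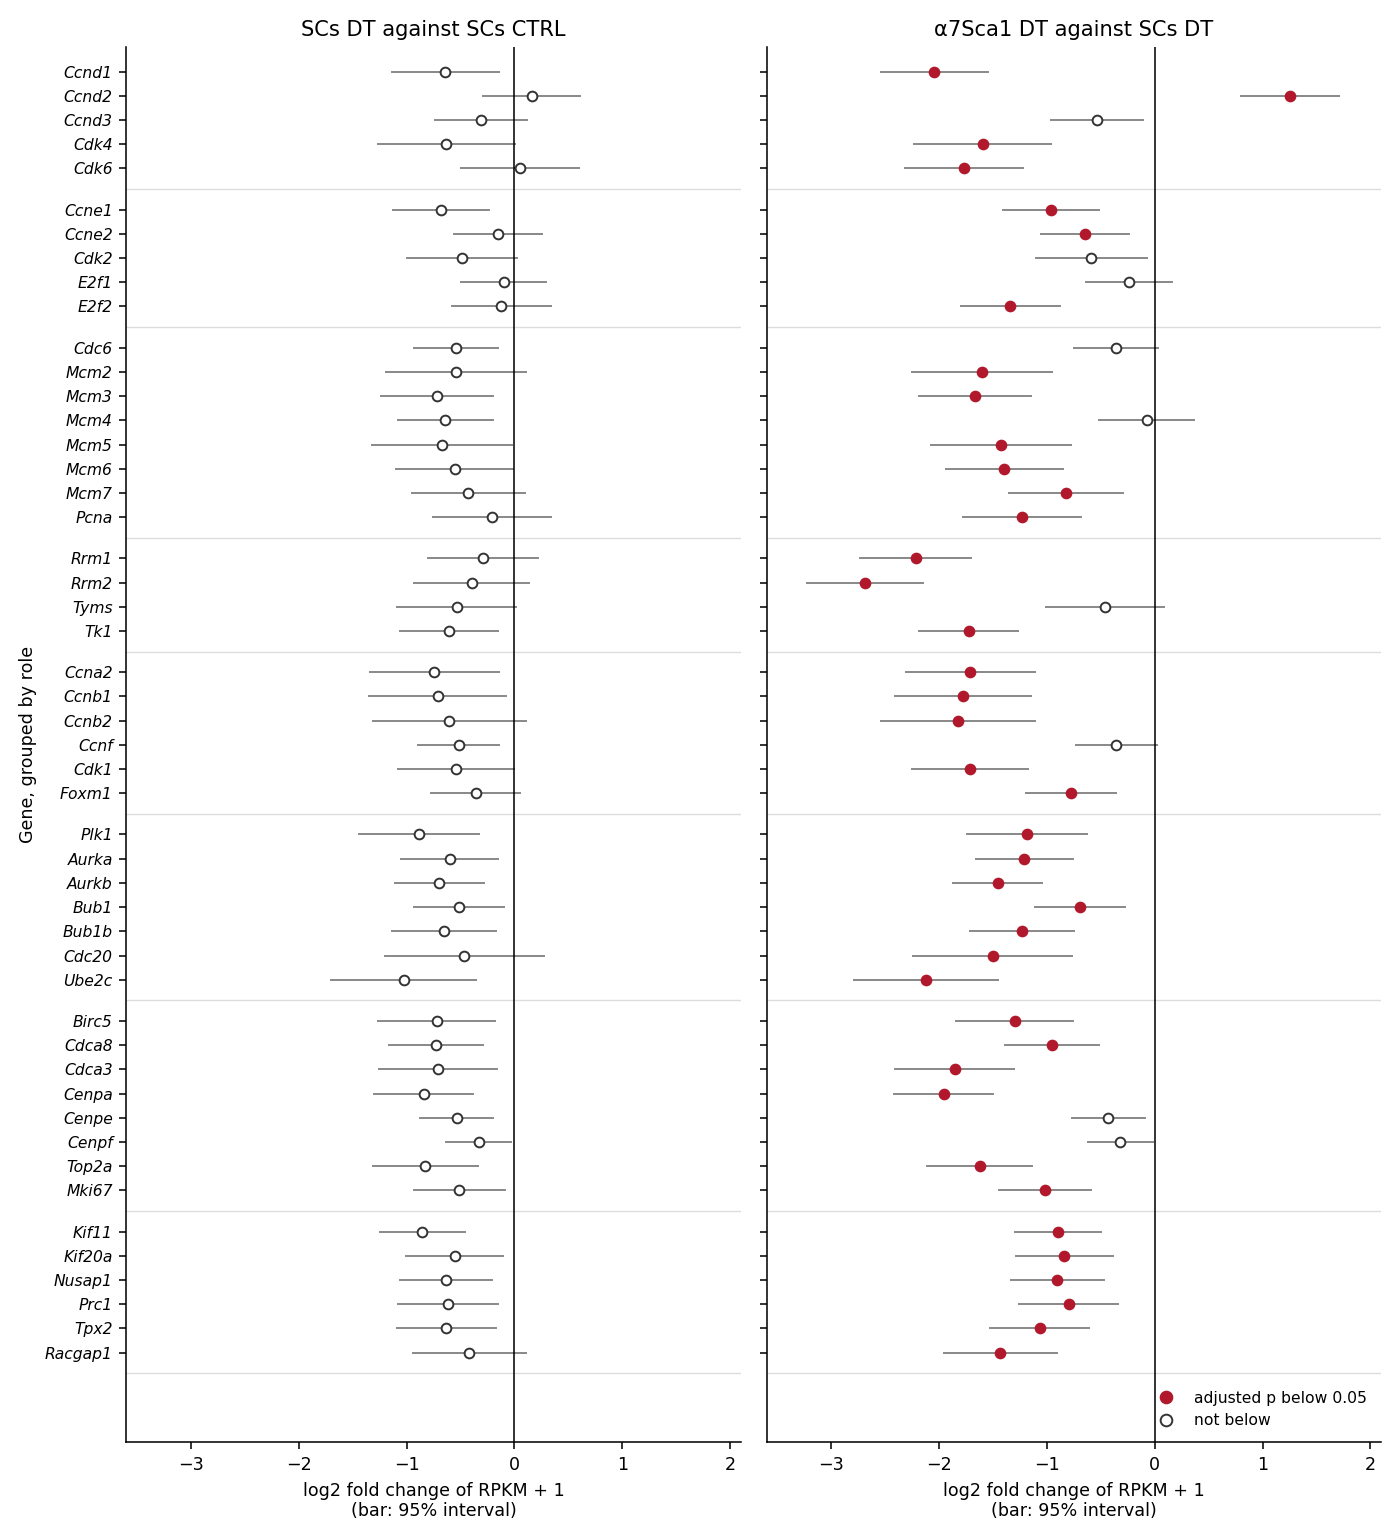
Log2 fold change of RPKM + 1 (x axis) with its 95% interval for each member (y axis, by role), for SCs DT against SCs CTRL on the left and α7Sca1 cells against SCs DT on the right; filled points passed an adjusted p of 0.05 in limma. None is filled on the left, where 47 of 49 points lie below 0, and 40 are filled on the right, of which Ccnd2 alone lies above 0.

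The roles are set side by side by their medians. In SCs DT the median member stood at 78.5% of its SCs CTRL level among G1 cyclins and kinases and at 80.1% among G1/S genes. It stood at 63.4% for origin licensing and replication, 68.9% for deoxynucleotide supply and 60.2% for S/G2 and mitotic cyclins. The 3 mitotic roles lay at 53.5% to 56.7%. In α7Sca1 cells the median member stood at 20.9%, 23.4% and 28.2% of SCs CTRL in the G1, G1/S and licensing roles and at 12.0% to 19.1% in the other 5 roles. The roles hold 4 to 8 genes each, and the differences between roles were not tested.

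Cell cycle genes outside the 49 were taken from lists of replication and mitosis genes. Of 48 other replication genes and 75 other mitosis genes tested, none was called in SCs DT against SCs CTRL by limma, with 46 and 73 below 0, 11 and 35 lower at an unadjusted p below 0.05 and 0 higher, and medians of -0.32 and -0.39. In α7Sca1 cells against SCs DT 17 of the replication genes and 53 of the mitosis genes fell, and 1 replication gene rose, where 15.6% of all genes fell and 14.6% rose. Their medians were -0.41 and -0.69. Leaving out either SCs DT library lowered these counts of lower genes, and lowered the count over all genes too. The largest differences among those of at least 5 RPKM were in Stmn1, Spc24, Pbk and Hmgb2. Stmn1, which destabilises microtubules, was at 75.3 and 83.0 RPKM in SCs CTRL, at 48.3 and 41.1 in SCs DT and at 11.5 and 6.35 in α7Sca1 cells, and fell by 2.25 against SCs DT (adjusted p = 0.0016). Spc24, a kinetochore subunit, fell by 1.97, Pbk, a mitotic kinase, by 1.88, and Hmgb2, a chromatin protein, by 1.82. The replication gene that rose was Gins1, a subunit of the active helicase, at 1.98 and 2.80 RPKM in α7Sca1 cells against 1.06 and 1.14 RPKM in SCs DT (0.68, adjusted p = 0.044), with SCs CTRL at 1.64 and 2.48 RPKM. It is named after its values were seen.

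Against SCs CTRL, 30 of the 48 replication genes and 65 of the 75 mitosis genes fell in α7Sca1 cells, where 17.3% of all genes did, with medians of -0.79 and -1.06. Leaving out the second SCs CTRL library lowered these counts, and lowered the count over all genes too. Stmn1 fell by 3.06, Pbk by 2.64, Hmgb2 by 2.48 and Cks2, a small protein that binds cyclin-dependent kinases, by 2.27, with adjusted p from 0.00035 to 0.0013 in limma. Orc5, a subunit of the complex that marks origins, was the only gene of these lists that rose. It was at 2.61 and 2.76 RPKM in SCs CTRL, at 3.49 and 4.07 in SCs DT and at 4.06 and 6.49 in α7Sca1 cells (0.74, adjusted p = 0.045).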

How the data were processed

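RNA-Seq was measured in 6 libraries of 3 groups, assigned from the sample labels. Pooled RNA was amplified by SMART-seq2, which marks no strand. The authors deposited RPKM values, from reads aligned to mm9 with TopHat (the submitters' notes name TopHat2 2.0.8). Sorted by size, the values of any library pair lie within 0.0192 RPKM of each other, which means that they were made to follow the same distribution, and depth is unknown. A table of 727 genes with the authors' own fold changes and p-values was not used, nor were its 10 columns of values per sample. limma 3.58.1 (R 4.3.3; lmFit, eBayes with trend) was fitted to log2(RPKM + 1), which understates changes of low genes, over genes with a maximum above 0.25 RPKM, with Benjamini-Hochberg adjustment and a threshold of 0.05. The fit had 3 residual and 4.29 prior degrees of freedom. It was also run on simulated data, with changes larger than the members' median in SCs DT against SCs CTRL. That run therefore cannot tell whether changes of the size of that median would be called. Libraries of a group are separate pools of mice, and p-values rest on a spread between pools that limma shares over groups and genes. Whether SCs DT and α7Sca1 cells were sorted from the same pools is not stated. Promoter windows are RefSeq sequences on GRCm38.p6; exon overlaps are from GENCODE on NCBIM37 and Python 3.11.15 (pandas 2.3.3, matplotlib 3.10.9) was used for the rest. Values in every library are given for the 4 members of highest mean RPKM in a role and each member higher in α7Sca1 cells; of other cell cycle genes, up to 4 of largest difference per direction that passed with at least 5 RPKM. Members, lists and this rule were chosen with earlier results of these data known. Alternatives were pseudocounts of 0.1 and 0.5 RPKM, no filter, a filter of 1 RPKM, rescaling by median ratios, a replicate block, fits of only 2 groups, no variance trend, and leaving out each library.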

Additional observations from a re-analysis of the deposited data

How the results depend on the processing

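No member was called in SCs DT against SCs CTRL by limma under any alternative or without any library, and Ccnd2 was the only member called higher in α7Sca1 cells under all of them. The median log2 fold change of the members in SCs DT against SCs CTRL (-0.56) was -0.73 with a pseudocount of 0.1 RPKM, -0.64 with 0.5 RPKM, and -0.73 to -0.43 with a library left out. In α7Sca1 cells it was -1.76 against SCs DT with a pseudocount of 0.1 RPKM, and -2.53 and -2.09 against SCs CTRL with 0.1 and 0.5 RPKM; the log scale itself widens differences of low genes as the pseudocount shrinks. With a library left out, the median of the members in α7Sca1 cells ran from -1.34 to -1.10 against SCs DT and from -1.87 to -1.71 against SCs CTRL. The other replication genes called lower against SCs DT (17) were 9 without a filter, 11 in the fit of the groups compared alone and 1 to 11 with a library left out, the other mitosis genes (53) 17 to 45, and the replication genes against SCs CTRL (30) 6 to 28; the cause of the changes without a filter was not tested, and a left-out library leaves fewer samples. With a library left out, the log2 fold change in SCs DT ran from -0.31 to 0.0040 for Ccne2, from -0.35 to 0.10 for E2f2 and from -0.27 to 0.38 for Cdk6, and that of E2f1 in α7Sca1 cells against SCs DT from -0.48 to 0.0023. The sign turned without the second SCs CTRL library for Ccne2 and E2f2, without the first SCs DT library for Cdk6 and without the second α7Sca1 library for E2f1. Over all genes, SCs DT against SCs CTRL gave 13 lower and 49 higher calls, 2 and 2 without a filter, 7 and 28 without a trend, and 0 and 1 with only the groups compared. When a library left a group with 1 sample, that sample was assumed to vary like the others.

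Replicate numbers are shared by the groups. The deviations of same-numbered libraries correlated at -0.131 (SCs CTRL and SCs DT), 0.162 (SCs CTRL and α7Sca1 cells) and 0.255 (SCs DT and α7Sca1 cells), so the numbers were not taken as pairs. With the replicate block 0 members were called in SCs DT against SCs CTRL, 39 lower and 1 higher in α7Sca1 cells against SCs DT, and 47 lower and 1 higher against SCs CTRL, while over all genes the block gave 25 lower and 67 higher calls in SCs DT against SCs CTRL.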

Other observations

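Relative to all other genes of a library, the members ranked lower in SCs DT than in SCs CTRL and lowest in α7Sca1 cells. The median member stood at percentile 80.4 and 80.0 of the tested genes in SCs CTRL, at 72.9 and 71.5 in SCs DT and at 48.4 and 37.9 in α7Sca1 cells. Since all libraries follow the same distribution, these percentiles restate the RPKM of the median member and add nothing separate. Members of at least 10 RPKM numbered 19 and 23 in SCs CTRL, 12 and 8 in SCs DT and 3 and 4 in α7Sca1 cells. In the α7Sca1 libraries Cdk4, Pcna and Ccnd2 were among these in both.

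The subunits of ribonucleotide reductase approached each other where both were low. The ratio of Rrm1 to Rrm2 was 0.667 and 0.689 in SCs CTRL, 0.859 and 0.618 in SCs DT and 0.973 and 1.08 in α7Sca1 cells. The ratio of Ccnd1 to Ccnd2 was 2.37 and 2.52 in SCs CTRL, 1.25 and 1.46 in SCs DT and 0.115 and 0.0827 in α7Sca1 cells.

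Other members share exon bases with a gene on the opposite strand, and these reads cannot be told apart either. Ccnd1 shares 818 bases with Oraov1, which lay between 1.00 and 1.66 RPKM in all libraries. Cdk4 shares 604 bases with Tspan31, which lay between 21.9 and 34.2 RPKM. Tspan31 was well below Cdk4 in every SC library. In α7Sca1 cells it was at 21.9 and 26.5 RPKM, where Cdk4 was at 25.5 and 16.8 RPKM. Ccne2 shares 474 bases with Ints8, which ran from 0.752 to 1.58 RPKM and was above Ccne2 in all libraries but the first of SCs CTRL. Ccna2 shares 428 bases with Exosc9 (1.77 to 3.71 RPKM), which was above Ccna2 in the second α7Sca1 library only. Kif20a shares 965 bases with Cdc23 (1.62 to 2.45 RPKM). Cdc23 was below Kif20a in both SCs CTRL libraries, of a like level in SCs DT and above Kif20a in both α7Sca1 libraries. Mcm7 shares 247 bases with Ap4m1 (0.864 to 1.92 RPKM) and 64 with Cops6 (24.0 to 41.9 RPKM), the latter above Mcm7 in every library. Ccnd3 shares 353 bases with Bysl (2.88 to 5.55 RPKM), Nusap1 172 with Oip5 (0.275 to 1.99 RPKM) and Tk1 83 with Afmid (0.415 to 0.663 RPKM). Cdc20 shares 53 bases with Elovl1 (9.80 to 24.2 RPKM), which was above Cdc20 in every library. Cdca8, Cdk6 and Tyms share bases with genes for which no levels are given. Pcna and Ccnd3 have annotated pseudogenes, and their values are uncertain to the extent that reads were divided between the copies.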
